A study of Arabidopsis thaliana with 4 samples.

Results

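The genes described here are 36 Arabidopsis thaliana genes for factors that cut, modify and fold the ribosomal RNA precursor (pre-rRNA) and build it into ribosomal subunits. They were taken by gene identifier from the 33341 genes counted in the study, and all 36 passed the filter on low counts that left 20937 genes for testing. The samples were whole seedlings aged 12 days, grown on MS plates with 1% sucrose at 22 °C in long days of 16 h light and 8 h dark. The atprmt3 mutant, named for the arginine methyltransferase gene PRMT3, had 1 library; the rps2a2b mutant, named for a pair of RPS2 genes, which code for a protein of the small ribosomal subunit, had 1 library; the Col wild type had 2 libraries. The labels give no allele type, number of pooled seedlings or insertion site. By its title the study asked about pre-ribosome assembly, nucleolar stress and the binding of PRMT3 to RPS2B, and the 36 genes code for the assembly machinery itself.

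Ribosomes are assembled first in the nucleolus, where a long transcript holding several ribosomal RNAs is modified at many sites, cleaved and trimmed while ribosomal proteins bind to it. Small nucleolar ribonucleoproteins (snoRNPs) guide the modifications: those of the H/ACA class convert uridine to pseudouridine, and those of the box C/D class methylate ribose. The precursors of the small and large subunits then separate, pass through the nucleoplasm, and lose their last assembly factors in the cytoplasm. In plants many of these factors were found through mutants with arrested female gametophytes, pointed leaves or slow growth.

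In both mutant libraries the H/ACA snoRNP genes stood higher than in Col, and so did some of the small- and large-subunit factors, while the exonuclease gene XRN3 stood lower, by less than 1.5-fold. Of the 36 genes, 7 were at least 1.5-fold higher in atprmt3 than in Col (19.4%, against 17.2% of all genes tested) and 11 in rps2a2b (30.6%, against 18.2% of all genes tested). In neither mutant was a member at least 1.5-fold lower (0 of 36, against 13.9% and 14% of all genes). The share in atprmt3 is near that over all genes. The highest fold was 2.12, for GAR1 in rps2a2b. Counts of the Col libraries agreed within sampling noise (chi-square of 0.989 per gene over 20569 genes), so they were summed and counted as 1 sample, and each genotype has n = 1. With 1 sample per genotype there is no test of a genotype, no p-value is given, and 1.5-fold is a rule of size. Intervals are 95% and cover counting error only, and the mutant libraries differed from each other by 6.12 times counting noise even among genes with 10 to 99 summed counts.

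Total counts on genes were 18650053 in atprmt3, 15194770 in rps2a2b, and 15646735 and 15637192 in the Col libraries. PRMT3 had 132 counts in atprmt3, 315 in rps2a2b, and 237 and 254 in the Col libraries. RPS2A (AT1G58380, listed as XW6 in the annotation) had 580 counts in atprmt3, 167 in rps2a2b, and 334 and 318 in Col, and RPS2B (AT1G59359) had 0 in every library, so it checks nothing.

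Promoters of 5 of the genes are shown because they hold 1 or both of a pair of short motifs counted below over all genes, or, in the last case, hold neither. The telo-box (AAACCCTA) and site II elements (TGGGCC or TGGGCT) are known from promoters of plant genes for ribosomal proteins and other growth genes. Each window runs from 250 bases before to 50 bases after the annotated gene start, in the gene's own direction, read from the RefSeq TAIR10.1 genome. Capitals mark the motifs on either strand, so that TAGGGTTT and GGCCCA or AGCCCA are the same motifs read on the other strand. CBF5, the pseudouridine synthase of H/ACA snoRNPs, has 2 telo-boxes and 2 site II elements (chr3:21156026-21156325, minus strand). GAR1, another core H/ACA protein, has 2 site II elements (chr3:1010524-1010823, minus strand). AT1G52930, which has a Brix domain, has 1 telo-box and 3 site II elements (chr1:19710929-19711228, plus strand). ENP1, a factor of the small-subunit precursor, has 1 telo-box and 2 site II elements (chr1:11333491-11333790, minus strand). XRN2, a nuclear exonuclease, has 0 of either (chr5:17007116-17007415, plus strand). The 5 windows are examples, and genes that stood lower than Col hold the motifs as well. XRN3 has 2 site II elements, and PRH75, the lowest large-subunit gene in both mutants, has 1 telo-box.
CBF5: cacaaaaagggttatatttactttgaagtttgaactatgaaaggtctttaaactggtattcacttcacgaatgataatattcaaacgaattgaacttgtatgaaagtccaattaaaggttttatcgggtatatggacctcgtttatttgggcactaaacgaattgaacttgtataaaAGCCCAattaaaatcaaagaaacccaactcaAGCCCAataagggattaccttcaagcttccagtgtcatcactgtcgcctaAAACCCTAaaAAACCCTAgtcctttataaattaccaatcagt
GAR1: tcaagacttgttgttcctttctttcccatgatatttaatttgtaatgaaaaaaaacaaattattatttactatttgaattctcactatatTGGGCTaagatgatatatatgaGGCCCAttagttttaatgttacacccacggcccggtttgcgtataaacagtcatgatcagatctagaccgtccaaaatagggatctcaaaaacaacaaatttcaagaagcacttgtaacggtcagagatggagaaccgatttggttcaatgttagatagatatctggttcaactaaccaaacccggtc
AT1G52930: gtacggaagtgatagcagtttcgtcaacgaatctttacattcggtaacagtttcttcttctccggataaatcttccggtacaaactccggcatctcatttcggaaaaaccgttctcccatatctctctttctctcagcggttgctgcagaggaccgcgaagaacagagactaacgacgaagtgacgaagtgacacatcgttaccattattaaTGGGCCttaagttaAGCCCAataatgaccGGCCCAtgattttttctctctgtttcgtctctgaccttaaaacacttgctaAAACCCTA
ENP1: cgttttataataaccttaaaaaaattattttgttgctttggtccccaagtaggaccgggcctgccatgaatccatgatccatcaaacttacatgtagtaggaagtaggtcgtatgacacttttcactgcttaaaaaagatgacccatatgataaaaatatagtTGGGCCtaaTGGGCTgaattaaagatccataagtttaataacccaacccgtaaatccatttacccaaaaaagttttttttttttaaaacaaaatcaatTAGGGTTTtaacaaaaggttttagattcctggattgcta
XRN2: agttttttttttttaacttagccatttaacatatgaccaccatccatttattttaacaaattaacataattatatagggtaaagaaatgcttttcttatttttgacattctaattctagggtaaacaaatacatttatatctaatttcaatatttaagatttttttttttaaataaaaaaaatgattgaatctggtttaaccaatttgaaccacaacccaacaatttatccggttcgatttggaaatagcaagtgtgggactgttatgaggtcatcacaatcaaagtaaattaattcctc

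The telo-box was present in 13 of the 36 promoters (36.1%), against 6.22% of the 27443 promoters of all protein-coding nuclear genes. A site II element was present in 25 (69.4%), against 21.7% of all, and both motifs in 10 (27.8%), against 2.2% of all. High shares were not particular to the 36 genes. Among 58 other genes of the pathway, described below, 44.8% had a telo-box, 55.2% a site II element and 27.6% both. Neither was found in the windows of 8 genes, which were NHP2, SWA3, APUM24, XRN2, AT1G54440, NMD3, LSG1-1 and LSG1-2. Small-subunit factors had a site II element in 9 of 10 windows and large-subunit factors a telo-box in 6 of 12. The motifs differed in position. Of the 14 telo-boxes, 13 began within 50 bases of the gene start, and the median of the 14 was 5.5 bases after it. The 51 site II matches began at a median of 54 bases before it (-54), and 26 of them more than 50 bases before it. A stretch of TGGGCCCA, as in AT5G15550 and AT2G40430, was counted once on each strand. Most of each window, 250 of 300 bases, lies before the start, and positions over all promoters were not counted. A match describes letters and is not a binding site.

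**Figure D1:**
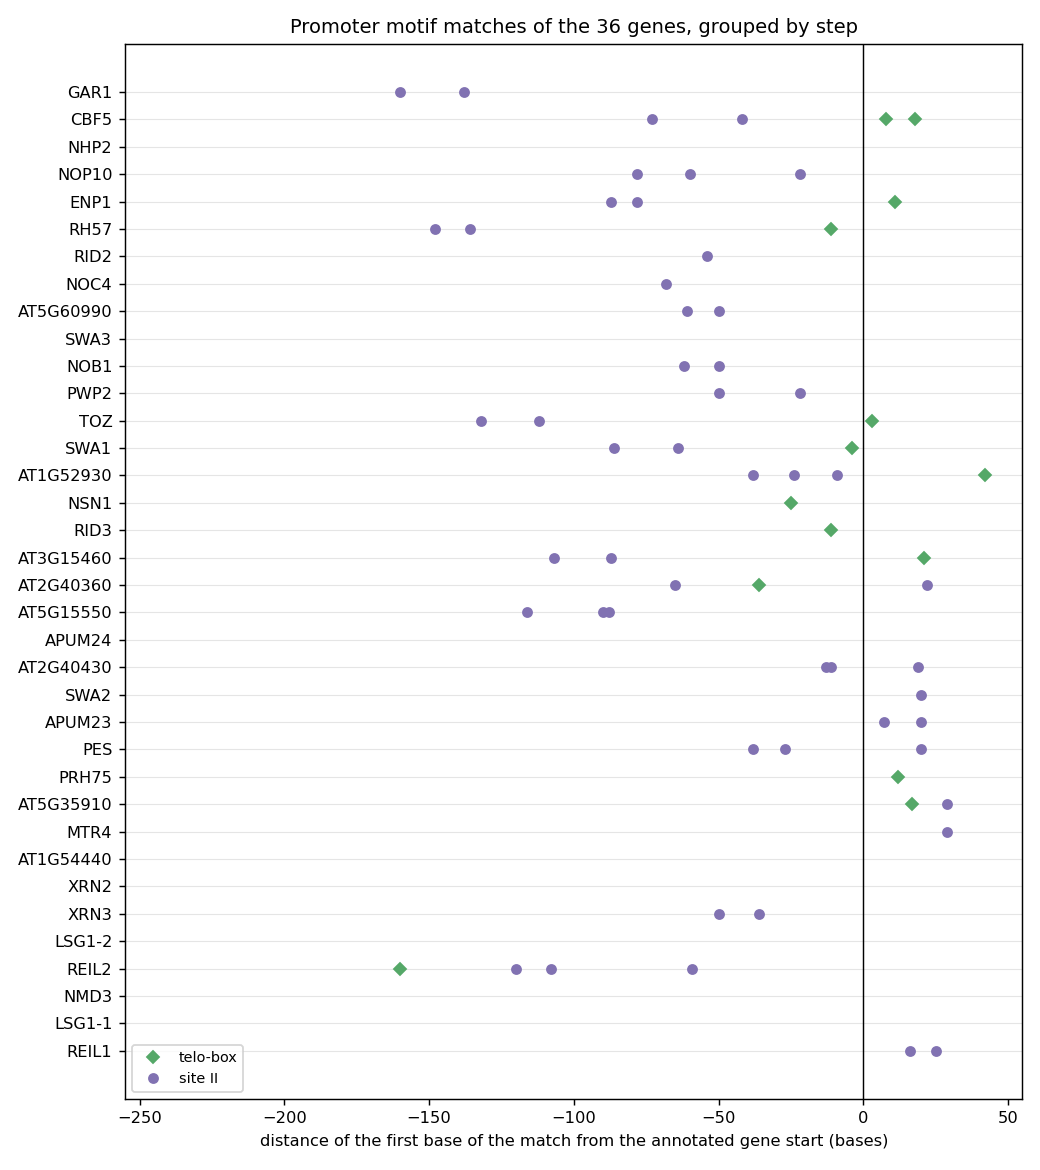
Positions of telo-box (diamonds) and site II (circles) matches, as the distance in bases of the first base of each match from the annotated gene start; each row is a gene, grouped by step and ordered within a step by fold change in rps2a2b. Telo-boxes lie close to the start, 13 of 14 within 50 bases. Of the site II matches 41 of 51 lie before it, as do 250 of the 300 bases of each window.

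Over all genes tested, those with both motifs had a median log2 fold change of 0.24 in atprmt3 and 0.24 in rps2a2b against Col (475 genes, the members included), and those with neither had -0.0041 and -0.0081 (14477 genes). Without the 36 genes, the 465 genes with both motifs had medians of 0.24 in atprmt3 and 0.23 in rps2a2b. Among the members with both motifs, 4 of 10 in atprmt3 and 5 of 10 in rps2a2b were at least 1.5-fold higher than in Col, against 0 of 8 and 1 of 8 with neither, and over all genes the shares were 23.4% and 22.3% with both, against 17.4% and 18.2% with neither. The member medians were 0.37 and 0.55 with both, against 0.06 and 0.24 with neither. These classes also differ by step. Neither motif was found in 2 of 5 RNA decay and 3 of 5 late cytoplasmic genes, steps with 0 genes past 1.5-fold against Col. In the other steps it was 1 of 4 H/ACA, 1 of 10 small-subunit and 1 of 12 large-subunit genes. The parts of motif and step were not tested. The classes with a single motif gave no steady order: the 3 members with a telo-box only had a median of 0.69 in rps2a2b with 2 of 3 at least 1.5-fold higher, and over all genes those with site II only had shares of 15.3% in atprmt3 and 15.9% in rps2a2b, below those with neither. The gene at least 1.5-fold higher without either motif was NHP2, in rps2a2b.

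Levels per kilobase of exon, as normalised read counts (CPM, counts scaled to library size by TMM), differed over a wide range between the genes. In Col, PRH75, a DEAD-box RNA helicase, was highest at 97.7 CPM per kb, followed by GAR1 at 60.5 and CBF5 at 46.1. RH57, another DEAD-box helicase, was lowest at 5.44 CPM per kb, with AT3G15460 at 5.88, RID3 at 5.96 and SWA3 at 5.99 just above it. In the mutants GAR1 took first place, at 104 CPM per kb in atprmt3 and 128 in rps2a2b, against 84.5 and 92.9 for PRH75. Summed over the 36 genes, the level was 1830 CPM in atprmt3, 2037 in rps2a2b, and 1669 and 1683 in the Col libraries. In whole seedlings, fewer cells of a type and less RNA per cell cannot be told apart.

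The background for the count of genes past 1.5-fold was large in this study. Between the mutants, 11.6% of all genes tested were at least 1.5-fold higher in rps2a2b than in atprmt3 and 9.79% lower. Among the 11893 genes within the members' range of mean level, 9.69 to 225 CPM, the shares were smaller than over all genes, 8.95% higher and 7.73% lower in atprmt3 against Col, 9.06% and 8.24% in rps2a2b against Col, and 3.12% and 2.87% between the mutants. The members' 7 and 11 of 36 are above the shares among genes of like level. With a trend on gene length and GC content removed they were 4 of 36 in atprmt3 (11.1%, against 16.2% of all genes) and 8 of 36 in rps2a2b (22.2%, against 17.9%). The median log2 fold change of the members was 0.18 in atprmt3 and 0.34 in rps2a2b against Col, where all genes tested had 0.008 and 0.0063. Values above 0 were found for 26 of the 36 in atprmt3 (72.2%) and 29 of the 36 in rps2a2b (80.6%). Over all genes tested the shares above 0 were 50.6% and 50.5%, and among genes of like level 48.6% and 47.5%. Both comparisons share the Col libraries, so they are not independent of each other.

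**Figure D2:**
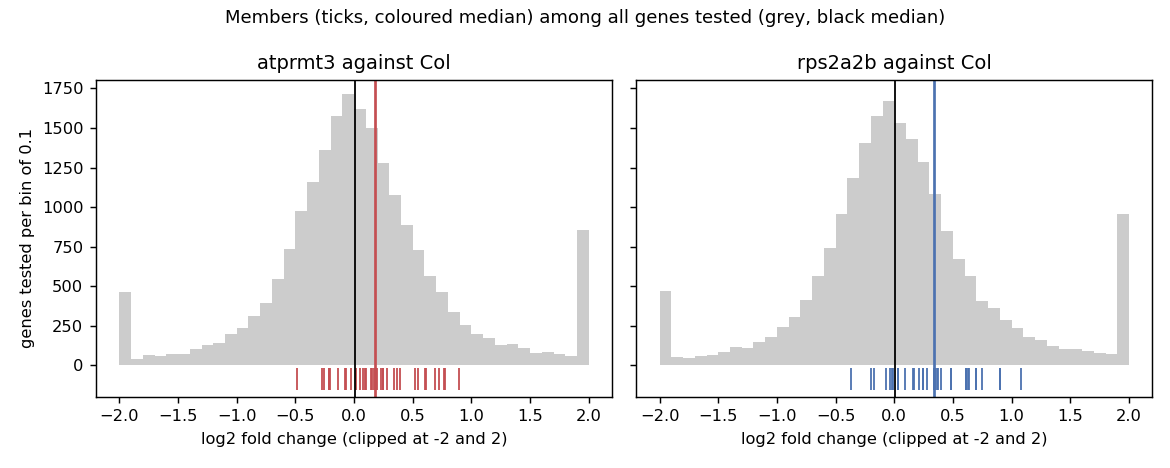
Histogram of log2 fold changes of the 20937 genes tested (grey, black line at their median) with the 36 assembly factor genes as ticks below (coloured line at their median), for atprmt3 against Col on the left and rps2a2b against Col on the right; values beyond -2 and 2 stand in the end bins. The members lie between -0.49 and 0.89 in atprmt3 and between -0.37 and 1.08 in rps2a2b, with medians of 0.18 and 0.34.

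The H/ACA snoRNP core consists of 4 proteins, and their genes formed the step with the highest median, 0.65 in atprmt3 and 0.77 in rps2a2b on the log2 scale. CBF5 (AT3G57150, chromosome 3, listed as NAP57 in the annotation) had 159 CPM in atprmt3, 194 CPM in rps2a2b, and 101 and 108 CPM in the Col libraries. Both mutant libraries lay above both Col libraries, and rps2a2b lay highest. Its log2 fold change against Col was 0.61 (0.54 to 0.68) in atprmt3 and 0.90 (0.83 to 0.97) in rps2a2b. GAR1 (AT3G03920) had 96.6 CPM in atprmt3, 119 CPM in rps2a2b, and 54.4 and 58.4 CPM in Col. With log2 fold changes of 0.78 (0.68 to 0.87) in atprmt3 and 1.08 (0.99 to 1.18) in rps2a2b, it had the highest fold of the members in rps2a2b. With the length and GC trend removed GAR1 was at 0.89 there and CBF5 at 0.95, so the order turned. Its exons overlap those of AT3G01375 and AT3G03910 on the other strand by 22 and 24 bases; AT3G01375 had 67 and 24 counts in atprmt3 and rps2a2b, against 1 and 0 in Col, while GAR1 had 1823 and 1919 against 822 and 881.

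NOP10 (AT2G20490), the smallest core protein, had 21.4 CPM in atprmt3, 20.2 CPM in rps2a2b, and 13.2 and 13.3 CPM in Col. Its libraries were again separated by genotype, at log2 fold changes of 0.69 (0.49 to 0.89) in atprmt3 and 0.61 (0.39 to 0.83) in rps2a2b. NHP2 (AT5G08180), which binds the guide RNA together with the other core proteins, had 54.3 CPM in atprmt3, 64.4 CPM in rps2a2b, and 42.1 and 40.8 CPM in Col. It passed 1.5-fold in rps2a2b at 0.64 (0.52 to 0.76) and stayed under it in atprmt3 at 0.39 (0.27 to 0.51). NOP10 has the shortest exons of the step, and with the trend on length and GC content removed its folds were 1.41 in atprmt3 and 1.31 in rps2a2b, under the threshold. CBF5 in atprmt3 also stood at the edge, at 1.53-fold against the summed Col libraries and 1.48-fold without Col replicate 1.

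**Figure D3:**
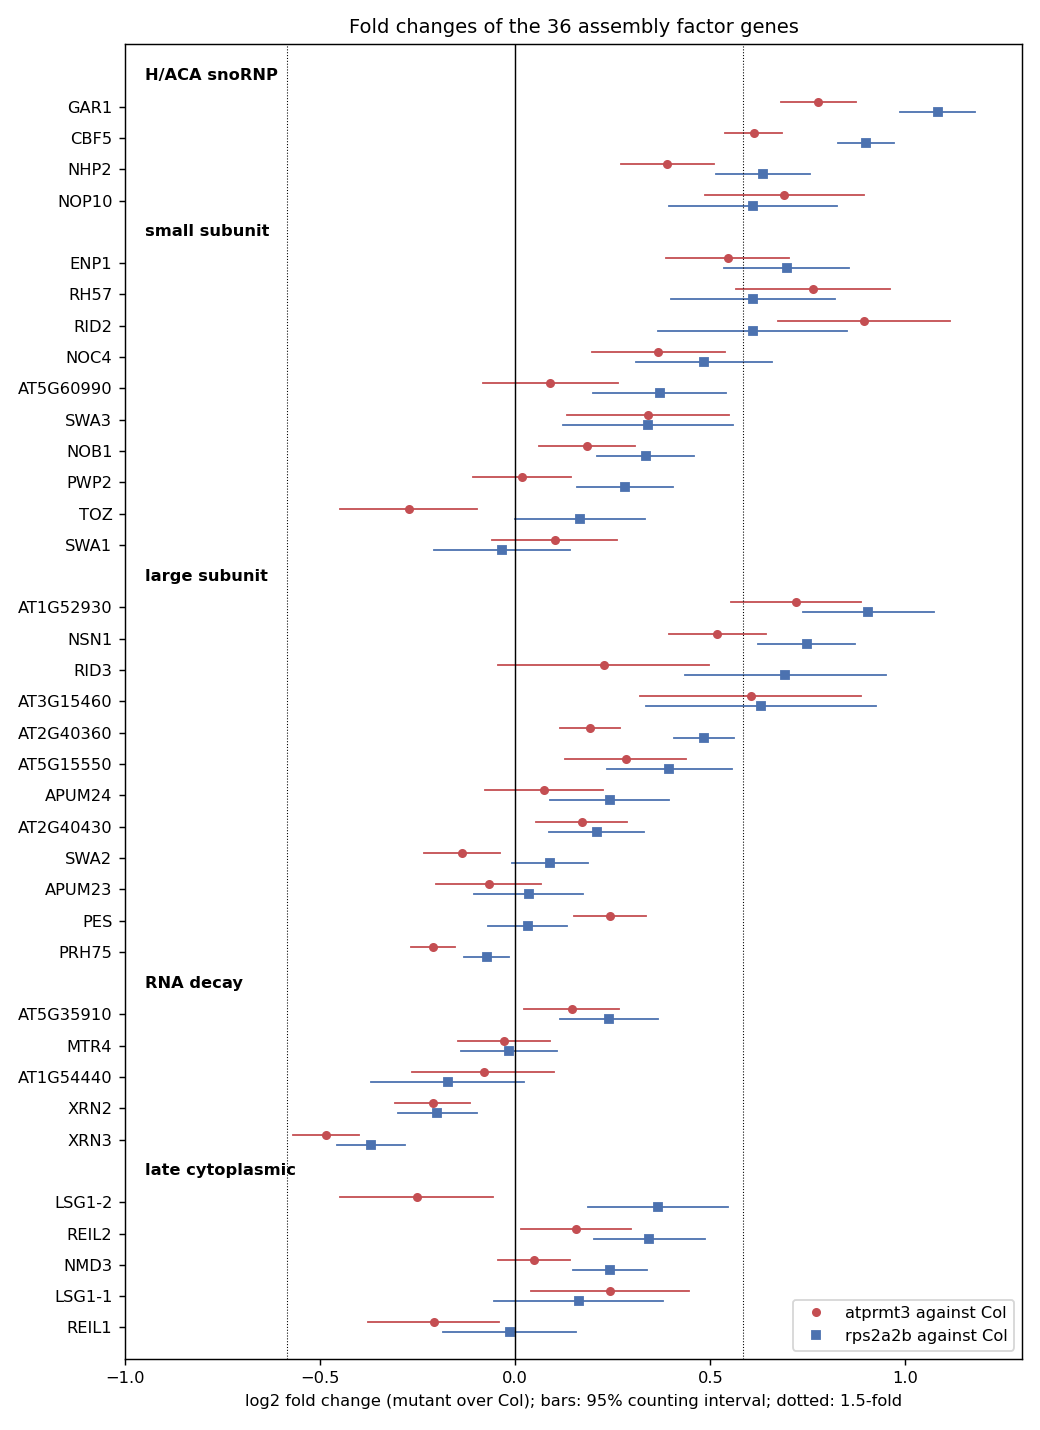
Log2 fold changes of the 36 genes against Col, with atprmt3 as circles and rps2a2b as squares, bars for 95% counting intervals and dotted lines at 1.5-fold; genes are grouped by step. The 4 H/ACA genes lie above 0 in both mutants, and 4 of the 5 RNA decay genes lie below 0 in each (1 of 5 in atprmt3 and 3 of 5 in rps2a2b with the length and GC trend removed).

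Small-subunit factors numbered 10, with median log2 fold changes of 0.26 in atprmt3 and 0.36 in rps2a2b. RID2 (AT5G57280), a methyltransferase-like protein needed for pre-rRNA processing, had 19.6 CPM in atprmt3, 16.0 CPM in rps2a2b, and 9.59 and 11.5 CPM in Col. Its log2 fold changes were 0.89 (0.67 to 1.11) in atprmt3, the highest of the members there, and 0.61 (0.37 to 0.85) in rps2a2b. With the length and GC trend removed the atprmt3 value was 0.73, below that of RH57 at 0.87. The rps2a2b fold of 1.52 is at the threshold, and it was 1.40 without Col replicate 1 and 1.44 with the length and GC trend removed. RH57 (AT3G09720), the DEAD-box helicase, had 23.3 CPM in atprmt3, 21.0 CPM in rps2a2b, and 13.5 and 14.0 CPM in Col. Its log2 fold changes were 0.76 (0.57 to 0.96) in atprmt3 and 0.61 (0.40 to 0.82) in rps2a2b, and the rps2a2b value corresponds to 1.53-fold, or 1.498-fold without Col replicate 1. ENP1 (AT1G31660), which in yeast accompanies the small-subunit precursor on its way to the cytoplasm, had 33.6 CPM in atprmt3, 37.3 CPM in rps2a2b, and 23.5 and 22.6 CPM in Col. It passed 1.5-fold in rps2a2b at 0.70 (0.54 to 0.86), and at 1.46-fold it was the member just under the threshold in atprmt3.

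At the other end of the step, TOZ (AT5G16750), a WD40-repeat protein of the small-subunit processome, had 21.5 CPM in atprmt3, 29.2 CPM in rps2a2b, and 25.0 and 27.0 CPM in Col. The mutants fell on either side of Col, with log2 fold changes of -0.27 (-0.45 to -0.10) in atprmt3 and 0.17 in rps2a2b, where the interval included 0. SWA1 (AT2G47990), a nucleolar WD40-repeat protein first found through slow female gametophytes, had 28.3 CPM in atprmt3, 25.8 CPM in rps2a2b, and 26.7 and 26.1 CPM in Col, and its intervals spanned 0 in both mutants. The other 5 genes of the step lay between 0.02 and 0.37 in atprmt3 and between 0.28 and 0.48 in rps2a2b. They were PWP2 and NOC4 of the small-subunit precursor, the DEAD-box helicases AT5G60990 and SWA3, and NOB1, the endonuclease that in yeast makes the last cut of the small-subunit RNA. NOC4 came nearest the threshold, at 1.40-fold in rps2a2b.

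Large-subunit factors numbered 12, with medians of 0.21 in atprmt3 and 0.32 in rps2a2b. AT1G52930 and AT3G15460 are a pair of Brix-domain genes, chosen as the copies of BRX1, which in yeast acts on the large-subunit precursor. AT1G52930 had 32.2 CPM in atprmt3, 36.6 CPM in rps2a2b, and 19.4 and 19.6 CPM in Col, at log2 fold changes of 0.72 (0.55 to 0.89) in atprmt3 and 0.91 (0.74 to 1.07) in rps2a2b. AT3G15460 had 10.9 CPM in atprmt3, 11.1 CPM in rps2a2b, and 6.88 and 7.42 CPM in Col, at 0.60 (0.32 to 0.89) in atprmt3 and 0.63 (0.34 to 0.92) in rps2a2b. Both copies were higher in both mutants, but the folds of AT3G15460 rest on few reads: 205 in atprmt3, 178 in rps2a2b, and 104 and 112 in Col. Without Col replicate 1 its fold was 1.46 in atprmt3 and 1.49 in rps2a2b. With the length and GC trend removed it was 1.35 in atprmt3 and 1.45 in rps2a2b, and AT1G52930 in atprmt3 was 1.47. Exons of AT3G15460 share 41 bases with AT3G15450 on the other strand, which had 488 counts in atprmt3, 426 in rps2a2b, and 1020 and 1084 in Col.

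NSN1 (AT3G07050), a nucleolar GTPase of the nucleostemin family, had 53.3 CPM in atprmt3, 62.5 CPM in rps2a2b, and 35.6 and 38.9 CPM in Col. Its log2 fold change was 0.52 (0.39 to 0.64) in atprmt3, short of 1.5-fold, and 0.75 (0.62 to 0.87) in rps2a2b. RID3 (AT3G49180), a WD40-repeat protein, had 10.5 CPM in atprmt3, 14.6 CPM in rps2a2b, and 8.99 and 9.01 CPM in Col. The rps2a2b library stood apart here, at 0.69 (0.43 to 0.95), while in atprmt3 the interval of 0.23 (-0.04 to 0.50) included 0. PRH75 (AT5G62190), the most abundant member per kilobase in Col, had 207 CPM in atprmt3, 228 CPM in rps2a2b, and 246 and 234 CPM in Col. It was the lowest gene of the step in both mutants, at -0.21 (-0.27 to -0.15) in atprmt3 and -0.07 (-0.13 to -0.01) in rps2a2b.

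The PES, BOP1 and WDR12 proteins form a complex that in yeast and mammals is needed for the large-subunit rRNAs. PES (AT5G14520), the pescadillo gene, had 87.6 CPM in atprmt3, 75.7 CPM in rps2a2b, and 73.5 and 74.5 CPM in Col. Its log2 fold changes were 0.24 (0.15 to 0.34) in atprmt3 and 0.03 (-0.07 to 0.13) in rps2a2b. AT2G40360, a WD40-repeat gene chosen as BOP1, was at 0.19 (0.11 to 0.27) in atprmt3 and 0.48 (0.41 to 0.56) in rps2a2b. AT5G15550, a WD40-repeat gene chosen as WDR12, was at 0.28 in atprmt3 and 0.40 in rps2a2b. All 3 genes of the complex lay above 0 and under 1.5-fold in both mutants, but the interval of PES in rps2a2b included 0. The remaining 4 genes of the step, SWA2, the Pumilio-family genes APUM23 and APUM24, and AT2G40430 (annotated as a Nop53 protein), lay between -0.14 and 0.17 in atprmt3 and between 0.03 and 0.24 in rps2a2b.

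**Figure D4:**
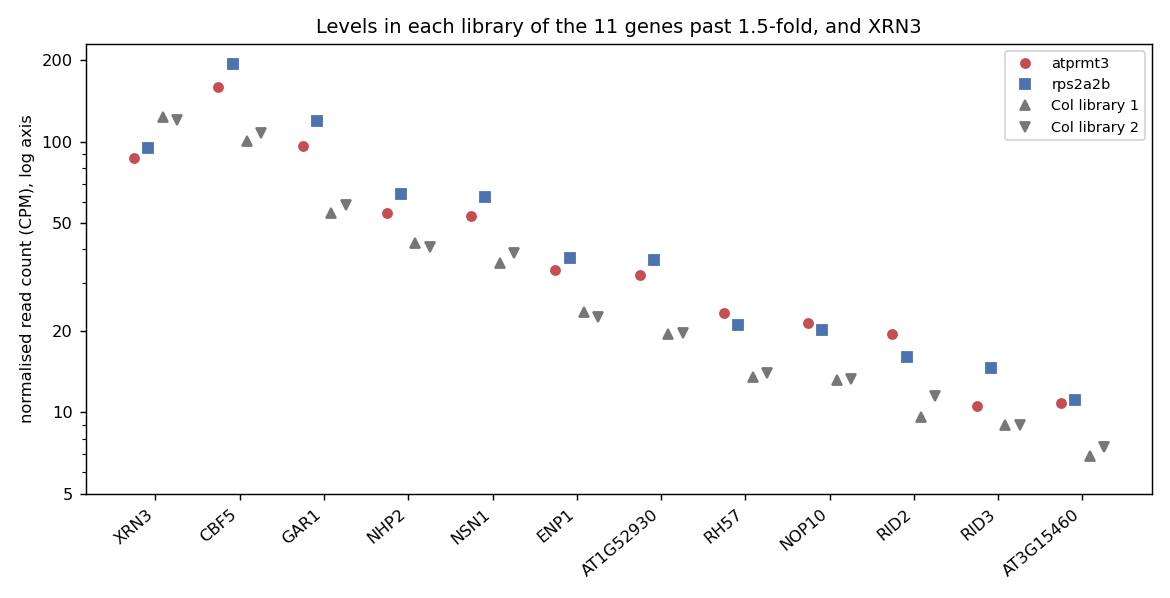
Normalised read counts (CPM, log axis) in each of the 4 libraries for the 11 genes at least 1.5-fold higher in a mutant and for XRN3, ordered by their level in Col; circles are atprmt3, squares rps2a2b and triangles the Col libraries. For the 11 genes both mutant libraries lie above both Col libraries, and for XRN3 both lie below them. The genes were picked by their folds against Col, so this separation is no further result. For RID3 in atprmt3 the counting interval of the fold change included 0 (-0.04 to 0.50).

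RNA decay factors had medians of -0.08 in atprmt3 and -0.17 in rps2a2b, with 4 of the 5 genes below 0 in each mutant and 0 past 1.5-fold. The sign depended on the processing: with the length and GC trend removed the median was 0.09 in atprmt3, with 1 of 5 below 0, and -0.06 in rps2a2b, with 3 of 5 below 0. XRN3 (AT1G75660), a nuclear exonuclease that degrades RNA from its 5′ end, had 87.2 CPM in atprmt3, 94.5 CPM in rps2a2b, and 124 and 120 CPM in Col. It was the lowest of the 36 genes in both mutants, at -0.49 (-0.57 to -0.40) in atprmt3 and -0.37 (-0.46 to -0.28) in rps2a2b, short of 1.5-fold. With the length and GC trend removed XRN3 was at -0.22 in both mutants. XRN2 (AT5G42540), its paralog, which in Arabidopsis trims pre-rRNA, had 71.3 CPM in atprmt3, 71.9 CPM in rps2a2b, and 83.9 and 81.2 CPM in Col. Its log2 fold change was -0.21 (-0.31 to -0.12) in atprmt3 and -0.20 (-0.30 to -0.10) in rps2a2b. Removing the length and GC trend turned the atprmt3 value to 0.02 and left -0.08 in rps2a2b, so no direction is given for XRN2. AT5G35910, of the pair chosen as RRP6-like nucleases, was the highest gene of the step, with 49.5 CPM in atprmt3, 52.9 CPM in rps2a2b, and 44.2 and 45.3 CPM in Col. AT1G54440, its partner, had 20.9 CPM in atprmt3, 19.7 CPM in rps2a2b, and 21.8 and 22.5 CPM in Col, with intervals spanning 0. MTR4 (AT1G59760), the helicase that feeds pre-rRNA to the nuclear exosome, was at -0.03 in atprmt3 and -0.02 in rps2a2b.

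Late cytoplasmic factors numbered 5, with medians of 0.05 in atprmt3 and 0.24 in rps2a2b, and 0 passed 1.5-fold against Col. LSG1-2 (AT1G08410), a GTPase whose yeast counterpart releases the export adaptor NMD3 from the large subunit, had 17.6 CPM in atprmt3, 27.0 CPM in rps2a2b, and 21.3 and 20.6 CPM in Col. The mutants lay on opposite sides of Col, at -0.25 (-0.45 to -0.06) in atprmt3 and 0.37 (0.19 to 0.54) in rps2a2b. Its paralog LSG1-1 (AT2G27200) had 18.6 CPM in atprmt3, 17.6 CPM in rps2a2b, and 15.5 and 15.9 CPM in Col, at 0.24 and 0.16. REIL1 (AT4G31420), whose yeast relative helps recycle late factors, had 23.6 CPM in atprmt3, 27.1 CPM in rps2a2b, and 27.0 and 27.6 CPM in Col. REIL2 (AT2G24500), known with REIL1 from growth in the cold, had 37.5 CPM in atprmt3, 42.7 CPM in rps2a2b, and 33.1 and 34.3 CPM in Col. Among these, atprmt3 was below both Col libraries for REIL1 and above both for REIL2, while rps2a2b overlapped Col for REIL1. NMD3 (AT2G03820) was at 0.05 in atprmt3 and 0.24 in rps2a2b.

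The members include 5 pairs of related genes, and the balance within each pair was followed as the share of the pair's reads. LSG1-1 held 51.4% of the pair's reads in atprmt3 (47.6 to 55.2), 39.5% in rps2a2b (35.9 to 43.2), and 42.2% and 43.6% in the Col libraries. The atprmt3 library stood above the other three, and its interval overlapped neither that of rps2a2b nor that of the summed Col libraries (39.9 to 45.8). REIL1 held 38.6% in atprmt3 (35.8 to 41.5), 38.8% in rps2a2b (35.9 to 41.7), and 45.0% and 44.6% in Col, with both mutants lower than the interval of the summed Col libraries (42.5 to 47.1). XRN2 held 45.0% in atprmt3 (43.2 to 46.8), 43.2% in rps2a2b (41.3 to 45.1), and 40.4% and 40.3% in Col. AT1G54440 held 29.7% in atprmt3, 27.1% in rps2a2b, and 33.1% in each Col library. AT3G15460 held 25.2% in atprmt3, 23.2% in rps2a2b, and 26.1% and 27.5% in Col, with overlapping intervals. Of the stretches of 50 bases within the exons of the pairs, 100% were unique in the genome, except for 99.6% in AT1G54440 and 98.7% in AT5G35910. Stretches across exon junctions were not searched. Intervals are Clopper-Pearson and cover counting error only.

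**Figure D5:**
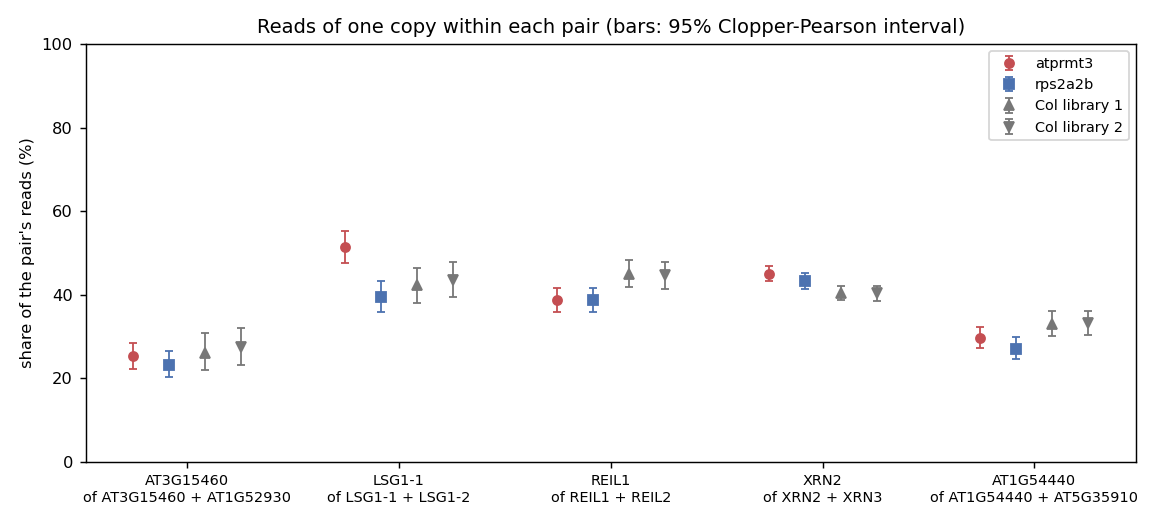
Share of a pair's reads (percent) held by the first-named copy in each of the 4 libraries, with 95% Clopper-Pearson intervals; circles are atprmt3, squares rps2a2b and triangles the Col libraries. LSG1-1 holds 51.4% in atprmt3, against 39.5% to 43.6% in the other libraries.

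In the direct comparison of the mutants, 1 of the 36 genes was at least 1.5-fold higher in rps2a2b than in atprmt3 (2.78%) and 0 were lower. Over all genes tested the shares were 11.6% and 9.79%. The gene was LSG1-2, with 434 counts in rps2a2b and 332 in atprmt3, a log2 fold change of 0.62 (0.41 to 0.83). The members' shares are near those among genes of like level, 3.12% higher and 2.87% lower. The median over the 36 genes was 0.14, with 29 above 0, where all genes tested had 0. RID3 at 0.46 (0.19 to 0.74) and TOZ at 0.44 (0.24 to 0.63) came next, and RID2 was lowest at -0.28 (-0.52 to -0.05). CBF5 and GAR1, which were high in both mutants, were higher in rps2a2b than in atprmt3, at 0.29 (0.21 to 0.36) and 0.31 (0.21 to 0.40), and PES was lower at -0.21 (-0.32 to -0.10).

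Other genes of the pathway were counted from a list of further factors, of which 57 were tested. In atprmt3 11 of them (19.3%) and in rps2a2b 10 (17.5%) were at least 1.5-fold higher than in Col. These are near the shares over all genes tested, 17.2% and 18.2%, which also stand beside the small sub-lists that follow. At least 1.5-fold lower were 0, against 13.9% and 14% of all genes, and the medians were 0.26 and 0.24. The box C/D snoRNP and nucleolin genes had the highest medians, 0.62 in atprmt3 and 0.80 in rps2a2b, with 4 of 7 past 1.5-fold in each. Further large-subunit factors had medians of 0.48 and 0.36, with 6 and 5 of 19 past 1.5-fold. Further small-subunit factors had medians of -0.0034 and 0.10, with 0 of 18 past 1.5-fold in either mutant. Exosome and other decay genes had medians of 0.16 and 0.16 with 1 of 11, and the RNA polymerase I subunits 0 of 2. The highest values belonged to NUC2, a nucleolin gene, at 2.77 in atprmt3 and 2.80 in rps2a2b, then FIB2, a fibrillarin gene, at 1.14 in atprmt3, and AT1G10300, chosen as a NOG1-type GTPase, at 1.40 in rps2a2b on 55 counts, against 21 and 18 in Col. The lowest were HEN2, a helicase of the nuclear exosome, at -0.43 and MDN1, which in yeast removes large-subunit assembly factors, at -0.41 in atprmt3, and AT1G63810, chosen as UTP22, at -0.16 and RRP44A, an exosome-associated nuclease, at -0.14 in rps2a2b.

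Marker genes of cell types moved with the genotypes as well. The 13 markers of dividing cells, such as B-type cyclins, summed to 350 CPM in atprmt3, 343 in rps2a2b, and 196 and 205 in Col. In each mutant 10 of 13 were at least 1.5-fold higher (76.9%, against 17.2% and 18.2% of all genes tested) and 0 were at 0. The 11 seed markers summed to 681 CPM in atprmt3, 1421 in rps2a2b, and 41.9 and 45.7 in Col, and CRU2, SESA1, SESA3 and SESA4 were at 0 in both Col libraries. Of these, SESA4 was also at 0 in both mutants and CRU2 in atprmt3, and SESA3 had 11 counts in atprmt3 and 2 in rps2a2b. The 9 leaf markers summed to 45412 CPM in atprmt3, 35437 in rps2a2b, and 57001 and 56835 in Col. At least 1.5-fold lower were 3 of 9 in atprmt3 and 6 of 9 in rps2a2b (33.3% and 66.7%, against 13.9% and 14% of all genes tested). RBCS1A and RBCS3B were above 0 in atprmt3, at log2 fold changes of 0.06 and 0.26, with 7 of 9 below 0 there and 9 of 9 in rps2a2b. The 9 root markers summed to 108 CPM in atprmt3, 114 in rps2a2b, and 137 and 140 in Col, while 5 of 9 were above 0 in each mutant, with medians of 0.37 in atprmt3 and 0.36 in rps2a2b. Past 1.5-fold, 2 of these 9 stood above Col and 1 below it in atprmt3 (22.2% and 11.1%), and 3 above and 2 below it in rps2a2b (33.3% and 22.2%). Over all genes tested the shares were 17.2% and 13.9% in atprmt3, and 18.2% and 14% in rps2a2b. The root shares in atprmt3 are near those. The part of these cell types in the levels of the assembly factors was not tested.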

How the data were processed

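Reads of 4 libraries from whole seedlings were aligned with TopHat2 to TAIR10 and counted with HTSeq, per the submitters' processing notes, which also name edgeR and give no versions. The authors deposited raw counts per gene, without normalization. Libraries were strand-specific (dUTP), per the labels' protocols. The strand setting of the counting is not given in the sources used here. How reads were assigned where genes overlap on opposite strands is therefore unknown, and some may be among the ambiguous reads left out. Exons of 10 of the 36 genes overlap a gene on the other strand and those of 3 a gene on the same strand. On the other strand the largest overlaps took 30.7% of the exon bases of SWA1, 18.4% of SWA3, 14.9% of AT2G40430 and 10.6% of RID3. On the same strand the largest took 9.67% of NSN1. Rows that name no gene were left out: 1.37% to 1.80% of reads on no feature, 2.25% to 3.26% ambiguous and 6.74% to 7.16% not unique.

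From the counts, edgeR 4.0.16 in R 4.3.3 was used with filterByExpr (minimum count 10, minimum total 15), TMM scaling over 20937 genes and a prior count of 0.125. The Col libraries were summed, and whether they came from separate cultures is not stated. Intervals at 95% are exact for the ratio of 2 counts. Procedures were tested on simulated data. A gene counted as higher or lower at 1.5-fold. Values are given in full for genes past that threshold against Col in either mutant, members of pairs and the highest and lowest of each step, and for the 2 highest and 2 lowest other pathway genes in each mutant. The members and lists were chosen with earlier results of these data known. All 36 identifiers matched the TAIR10.1 annotation; 58 of 63 other pathway genes did so under the intended name. Promoter motifs, planned for a promoter table, were searched in windows cut from the TAIR10.1 genome instead. Alternatives were other scalings (DESeq2 1.42.0 size factors, upper quartile, total counts), no filter, a prior count of 2, removal of a trend on length and GC content (mgcv 1.9.3), a 2-fold threshold, each Col library left out, and edgeR and DESeq2 tests.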

Additional observations from a re-analysis of the deposited data

How the results depend on the processing

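Medians over the 36 genes and values past 1.5-fold kept their sign under the alternatives run. Values nearer 0 did not all do so: with the length and GC trend removed 5 members turned sign in atprmt3 and 1 in rps2a2b against Col, and with total counts 1 and 4, and the median of the RNA decay genes in atprmt3 turned to 0.09 with that trend removed. Median log2 fold changes of the members against Col moved to 0.21 with upper-quartile factors, 0.24 with total counts and 0.24 with the length and GC trend removed in atprmt3, and to 0.47 with total counts in rps2a2b; between the mutants total counts gave 0.21. Total counts also shifted the median of all genes to 0.14 in rps2a2b and 0.08 in atprmt3 against Col, so those medians are relative to it. Members at least 1.5-fold higher numbered 4 in atprmt3 (11.1%, against 16.2% of all genes) and 8 in rps2a2b (22.2%, against 17.9%) with that trend removed. At 2-fold, 0 were higher in atprmt3 (8.98% of all genes), 1 in rps2a2b (10.02%) and 0 between the mutants (5.93%). With total counts CBF5 and AT1G52930 also passed 2-fold in rps2a2b, and with the length and GC trend removed GAR1 did not. Leaving out a Col library gave 5 to 7 of the 36 members higher in atprmt3, beside 17.5% to 17.6% of all genes. In rps2a2b it gave 8 to 11 of the 36, beside 18.4% to 18.5% of all genes. The medians were 0.17 to 0.19 and 0.32 to 0.34. Calls were lost only without replicate 1, for CBF5 and AT3G15460 in atprmt3 and RH57, RID2 and AT3G15460 in rps2a2b.

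Tests that take their spread from the Col libraries compare libraries, not genotypes. At an adjusted p of 0.05, edgeR's quasi-likelihood test called 17 members higher and 6 lower in atprmt3, 23 and 2 in rps2a2b against Col, and 8 and 1 between the mutants, beside 27.5% and 26.2%, 26.7% and 25.9%, and 12.6% and 12.8% of all genes. The DESeq2 Wald test called 6 and 2, 7 and 1, and 0 and 0 in the same order, beside 7.69% and 8.25%, 7.66% and 8.47%, and 2.14% and 4.03% of genes. Single-gene values moved by more than their interval in 17 of 108 cases with total counts, 21 of 108 with the length and GC trend removed, and 0 elsewhere; the cause was not tested. No paired analysis was possible because no label ties a mutant library to a particular Col library. With 1 library per mutant, the spread between cultures is unknown, and AT3G15460 and RID3 rest on the fewest reads.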
